A study of Mus musculus with 2 samples.

Results

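Mir138-1 and Mir138-2, Mir218-1 and Mir218-2, and Mir129-1 and Mir129-2 are 3 pairs of microRNA genes of neurons, each pair encoding 1 and the same main mature microRNA from separate chromosomes. They were chosen by name, as the annotated loci of miR-138, miR-218 and miR-129, and all 6 were found among the 2202 microRNA genes of the tables. Levels were measured by microRNA sequencing of cortex tissue from the left cerebral hemisphere of 36-day-old males of B6CASTF1/J, a hybrid of C57BL/6J and CAST/EiJ mice, with RNA labelled as shorter than 30 bases. The 2 libraries form 1 group, labelled animal 3 (replicate 1) and animal 4 (replicate 2) but with the same donor identifier. There is no treatment, genotype or other condition to compare. The questions asked here are therefore how the counts of each microRNA divide between its 2 loci, and whether that division and the levels held from one library to the other.

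A microRNA is cut from a transcribed hairpin, first by Drosha in the nucleus and then by Dicer in the cytoplasm, and 1 of the 2 arms of the hairpin is usually kept by an Argonaute protein. The kept strand finds messenger RNAs mainly through its seed, bases 2 to 8 from the 5′ end. miR-138 is enriched in brain and present in dendrites, where it limits the size of dendritic spines. miR-218 is made from introns of the genes for the axon guidance ligands Slit2 and Slit3 and is best known from motor neurons. miR-129 is a microRNA of neurons that has been linked to the lowering of excitatory synapses when activity is high.

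The mature 5p arms are printed because the loci of a pair cannot be told apart by them. Mature sequences are RefSeq's for GRCm38.p6, 5′ to 3′, with the seed in capitals.
miR-138-5p (Mir138-1 and Mir138-2): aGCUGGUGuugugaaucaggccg
miR-218-5p (Mir218-1 and Mir218-2): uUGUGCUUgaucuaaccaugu
miR-129-5p (Mir129-1 and Mir129-2): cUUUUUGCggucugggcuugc
Each of these 3 sequences is found whole in both hairpins of its pair, and the 3 seeds differ from one another. In the RefSeq table no other mouse mature microRNA has the seed of miR-138-5p or of miR-129-5p, and 1 other, miR-7002-3p, has that of miR-218-5p.

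The 3p arms are printed because they are where the loci of a pair differ.
miR-138-1-3p (Mir138-1): cGGCUACUucacaacaccaggg
miR-138-2-3p (Mir138-2): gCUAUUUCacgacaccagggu
miR-218-1-3p (Mir218-1): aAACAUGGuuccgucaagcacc
miR-218-2-3p (Mir218-2): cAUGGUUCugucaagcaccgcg
miR-129-2-3p (Mir129-2): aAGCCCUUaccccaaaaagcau
The 5 arms have 5 different seeds, so the 2 loci of miR-138, and likewise those of miR-218, carry 3p arms with unlike seeds as annotated. Set without gaps against the best matching stretch of the other hairpin, with positions counted from the arm's 5′ end and the arm's own base given first, miR-138-1-3p differed at C7U and A13G. On the same count miR-218-1-3p differed at A1G and C12U. Both lie outside its seed, which is also in the Mir218-2 hairpin, so the miR-218 seeds are unlike through where the annotated arms start. The closest match was that of miR-129-2-3p, which differed from the Mir129-1 hairpin at C20U alone. A copy of it that ends before that base fits both loci of miR-129.

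The whole hairpins follow in the same direction, with the longest stretch that the pair has in common in capitals. Positions are those of mm10 in GENCODE M21, and all 6 hairpins and positions were the same in RefSeq.
Mir138-1, chr9:122682876-122682974, plus strand: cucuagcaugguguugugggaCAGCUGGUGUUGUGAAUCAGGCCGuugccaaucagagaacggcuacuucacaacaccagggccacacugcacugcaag
Mir138-2, chr8:94324311-94324381, plus strand: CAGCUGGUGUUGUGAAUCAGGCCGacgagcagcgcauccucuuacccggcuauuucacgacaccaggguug
Mir218-1, chr5:48223942-48224051, plus strand: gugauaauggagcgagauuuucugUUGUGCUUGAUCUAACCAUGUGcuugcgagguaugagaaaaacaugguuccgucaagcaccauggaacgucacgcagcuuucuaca
Mir218-2, chr11:35616816-35616925, plus strand: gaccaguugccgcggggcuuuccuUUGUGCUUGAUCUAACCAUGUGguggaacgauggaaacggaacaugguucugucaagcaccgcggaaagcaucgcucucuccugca
Mir129-1, chr6:29022619-29022691, plus strand: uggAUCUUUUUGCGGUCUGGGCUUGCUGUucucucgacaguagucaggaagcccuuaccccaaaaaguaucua
Mir129-2, chr2:94241364-94241453, minus strand: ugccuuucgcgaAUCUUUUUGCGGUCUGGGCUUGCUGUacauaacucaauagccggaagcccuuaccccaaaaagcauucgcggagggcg
The shared stretch is 24 bases for miR-138, 22 for miR-218 and 26 for miR-129, in each case the 5p arm with few or no bases around it. A copy of miR-138-5p that runs 1 templated base past its 3′ end is no longer the same at both loci. For miR-218-5p this takes 2 bases at the 3′ end or 1 at the 5′ end, and for miR-129-5p 4 or 3. Over the whole hairpin the miR-218 loci were alike at 70.9% of aligned positions, the miR-129 loci at 68.1% and the miR-138 loci at 49.5%.

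**Figure D1:**
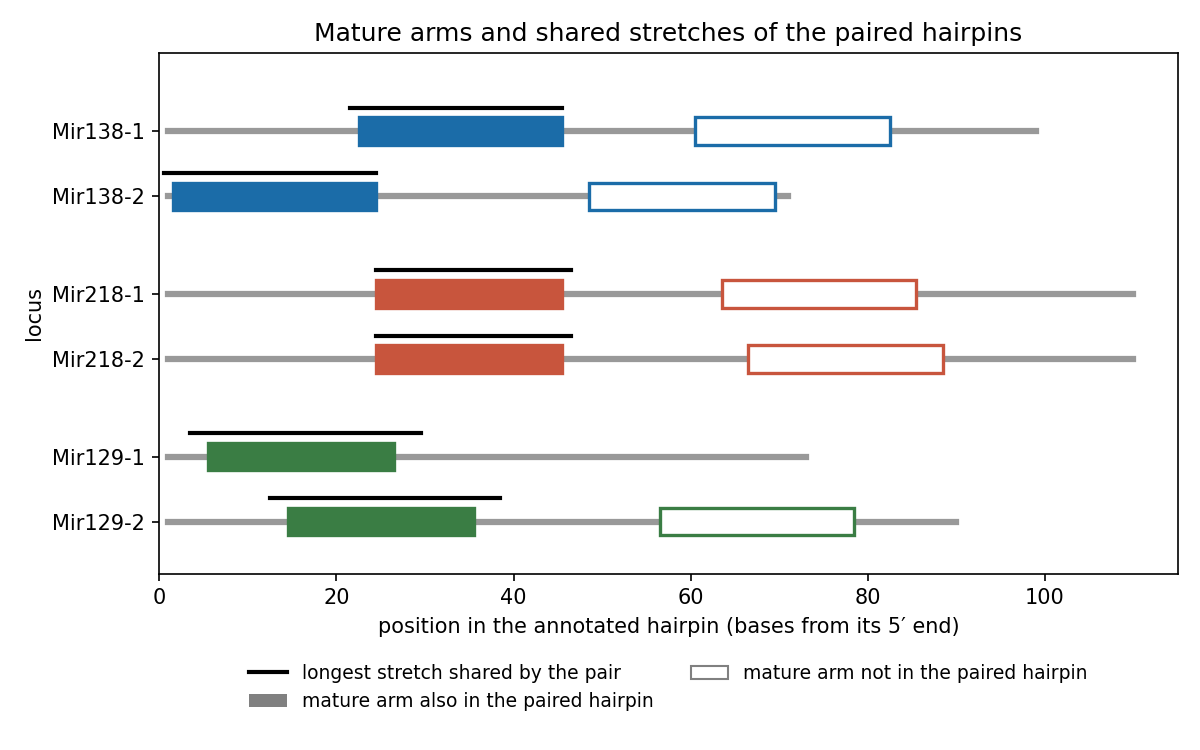
Annotated hairpins of the 6 loci drawn to scale (horizontal axis, bases from the 5′ end), with filled boxes for mature arms found whole in the paired hairpin, open boxes for arms that are not, and a black line over the longest shared stretch of 24, 22 or 26 bases. The shared stretch lies over the 5p arm in all 6 hairpins, and none of the annotated 3p arms is shared.

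The loci sit in different kinds of transcript. Mir218-1 lies in an intron of Slit2 (chr5:47983138-48307733) and Mir218-2 in an intron of Slit3 (chr11:35121224-35708507), both on the strand of the host gene. Mir129-2 lies in an intron of the long noncoding RNA Mir670hg. The other 3 lie within exons, Mir129-1 of the long noncoding RNA Gm3294, Mir138-2 of the long noncoding RNA C78859 and Mir138-1 of the transcribed pseudogene Gm47135. Mir129-2 alone has a microRNA gene on the opposite strand, Mir129b, which lies within its span.

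The tables count reads per hairpin, so the 5p and the 3p arm of a locus are summed. Reads that fit several places stand outside the gene counts. A read of exactly a shared mature 5p sequence fits both hairpins of its pair, so it is among those left out. The counts of a locus can hold only reads that tell it from its partner, such as 3p reads or longer 5p reads. Replicate 1 had 4273791 counts on the genes' own strand and replicate 2 had 4010274, 36.0% and 34.8% of all reads, while multi-mapped reads made up 42.8% and 39.9%. Of windows of 22 bases in the Mir138-1 hairpin, 75 of 78 (96.2%) occurred at no other annotated microRNA locus, and the share was 94.0% for Mir138-2. It was 98.9% for both miR-218 loci, 90.4% for Mir129-1 and 92.8% for Mir129-2. The windows found elsewhere lie within the stretches in capitals above, and how many miR-138, miR-218 or miR-129 reads lie among the multi-mapped ones was not tested. Levels below are of reads assigned to 1 locus. They are given in CPM, own-strand counts scaled to a library total of 1000000, without division by hairpin length, because a read of this size covers a whole arm and not a part of a long transcript. Intervals cover counting error only.

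The miR-138 loci had by far the most assigned reads of the 6. Mir138-1 had 22615 counts (5292 CPM) in replicate 1 and 29491 counts (7354 CPM) in replicate 2, 6323 ± 1458 CPM (SD, n = 2). Mir138-2 had 13411 counts (3138 CPM) and 14476 counts (3610 CPM), 3374 ± 334 CPM (SD, n = 2). Both loci stood higher in replicate 2, and the libraries' values for the 2 loci did not overlap. By mean level Mir138-1 ranked 35 and Mir138-2 ranked 52 among all microRNA genes.

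The miR-129 loci came next. Mir129-2 had 5290 counts (1238 CPM) in replicate 1 and 3549 counts (885 CPM) in replicate 2, 1061 ± 249 CPM (SD, n = 2). Mir129-1 had 1622 counts (380 CPM) and 623 counts (155 CPM), 267 ± 159 CPM (SD, n = 2). Both stood lower in replicate 2, and Mir129-2 was the higher of the pair in each library. The level of Mir129-2 rests on the strand. In the column that ignores strand it had 10 and 16 counts, since reads within both Mir129-2 and Mir129b are ambiguous there. On its own strand Mir129b had 0 counts in replicate 1 and 5 in replicate 2.

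The miR-218 loci had the fewest assigned reads. Mir218-2 had 519 counts (121 CPM) in replicate 1 and 413 counts (103 CPM) in replicate 2, 112 ± 13.0 CPM (SD, n = 2). Mir218-1 had 110 counts (25.7 CPM, exact 95% interval 21.2 to 31.0) and 67 counts (16.7 CPM, 12.9 to 21.2), 21.2 ± 6.39 CPM (SD, n = 2). The locus in Slit3 was thus the higher of the pair in each library, and both stood lower in replicate 2. By mean level Mir218-2 ranked 198 and Mir218-1 ranked 276 among all microRNA genes, and all 6 loci were among the 300 genes with 10 CPM or more in both libraries.

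From highest to lowest the order was Mir138-1, Mir138-2, Mir129-2, Mir129-1, Mir218-2 and Mir218-1, and it was the same in both libraries. The values of neighbours in this order did not overlap between libraries, but the means of Mir129-1 and Mir218-2 differed by less than the SD of Mir129-1. Summed over both loci, miR-138 stood at 9697 ± 1792 CPM, miR-129 at 1329 ± 408 CPM and miR-218 at 133 ± 19.4 CPM (SD, n = 2). These sums leave out reads that fit both loci of a pair, so they are not levels of the mature microRNAs. Whether the pairs give assignable reads in like proportion was not tested, so the order is one of assigned reads only.

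**Figure D2:**
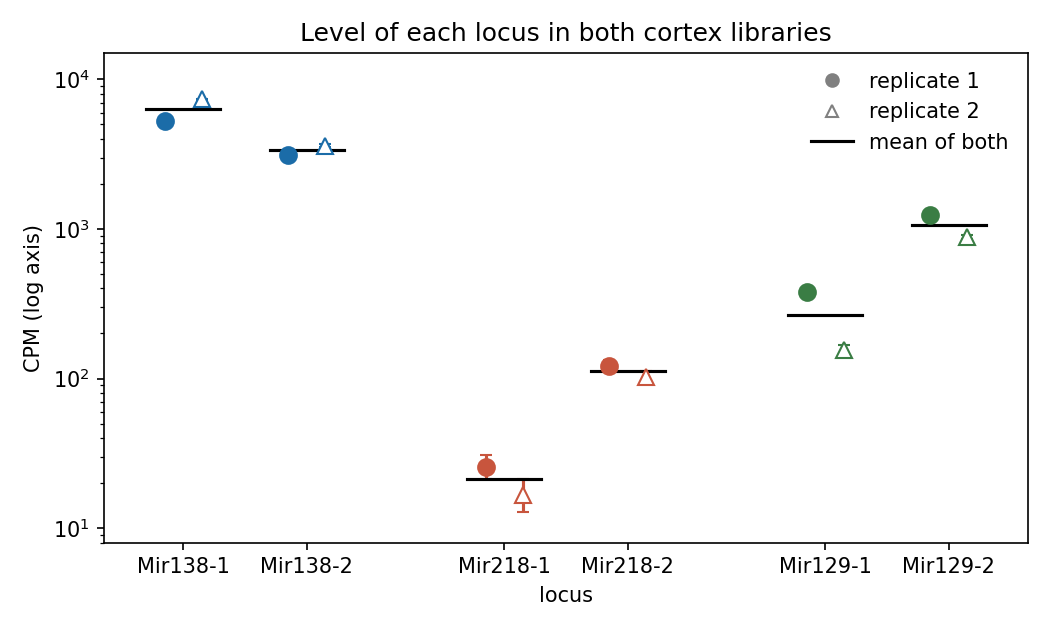
CPM of each locus (vertical axis, log scale) in replicate 1 (filled circles) and replicate 2 (open triangles), with exact 95% counting intervals as bars and the mean as a black line. The miR-138 loci lie between 3138 and 7354 CPM and the miR-218 loci between 16.7 and 121 CPM.

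Within each pair 1 locus had most of the counts, and it was the same locus in both libraries. This comparison needs no scaling, since both loci are read in the same library. It covers only reads that fit 1 locus, and whether both loci give such reads in like proportion was not tested. Mir138-1 held 62.8% of the miR-138 counts in replicate 1 (exact 95% interval 62.3 to 63.3) and 67.1% in replicate 2 (66.6 to 67.5), 64.9% ± 3.04 (SD, n = 2). The ratio of Mir138-1 to Mir138-2 was 1.69 in replicate 1 and 2.04 in replicate 2, so miR-138 was the most evenly divided of the 3. Its loci also differ in length, 99 and 71 bases, and divided by length the share of Mir138-1 was 57.1%.

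In the other 2 pairs the second locus led. Mir129-1 held 23.5% of the miR-129 counts in replicate 1 (22.5 to 24.5) and 14.9% in replicate 2 (13.9 to 16.1), 19.2% ± 6.03 (SD, n = 2). Mir129-2 thus had 3.26 times the counts of Mir129-1 in replicate 1 and 5.70 times in replicate 2. Mir218-1, the locus in Slit2, held 17.5% of the miR-218 counts in replicate 1 (14.6 to 20.7) and 14.0% in replicate 2 (11.0 to 17.4), 15.7% ± 2.50 (SD, n = 2). The locus in Slit3 had 4.72 times and 6.16 times its counts. The hairpins of the miR-218 loci are equally long, 110 bases.

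Whether a split differed between the libraries was tested on the 4 counts of a pair, for all families with exactly 2 loci and 10 or more counts. Of 23 such families 17 were called different (73.9%) at an adjusted p under 0.05 in Fisher's exact test, so a difference is usual in these libraries and 2 calls among 3 pairs do not stand out. The miR-129 split was called, with a log2 odds ratio of Mir129-1 to Mir129-2, replicate 2 over replicate 1, of -0.80 (exact 95% interval -0.95 to -0.66; adjusted p = 3.39e-27, Fisher's exact test). The miR-138 split was called too, at 0.27 (0.23 to 0.32; adjusted p = 8.08e-36, Fisher's exact test), between shares of 62.8% and 67.1%. For miR-218 the log2 odds ratio was -0.39 (-0.89 to 0.11; adjusted p = 0.149, Fisher's exact test), so a difference was not detected, and the interval still holds shifts as large as that of miR-129. Over the 21 families with counts at both loci in both libraries the median absolute log2 odds ratio was 0.62. miR-129 ranked 8, miR-218 ranked 16 and miR-138 ranked 18 by its size. These tests compare the libraries and cover counting error, not variation between animals.

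In the 23 families the more abundant locus had a median of 80.2% of the counts, from 53.2% to 100%. The leading loci Mir218-2 and Mir129-2, at 84.3% and 80.8%, lay near that median, and Mir138-1 at 64.9% ranked 19 of 23. By summed CPM of reads assigned to 1 locus, miR-138 was the second most abundant of these families, miR-129 ranked 7 and miR-218 ranked 17. A mature sequence common to both loci is listed by RefSeq for 22 of the 23 families, so these have the same limit on counts as the 3 pairs.

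**Figure D3:**
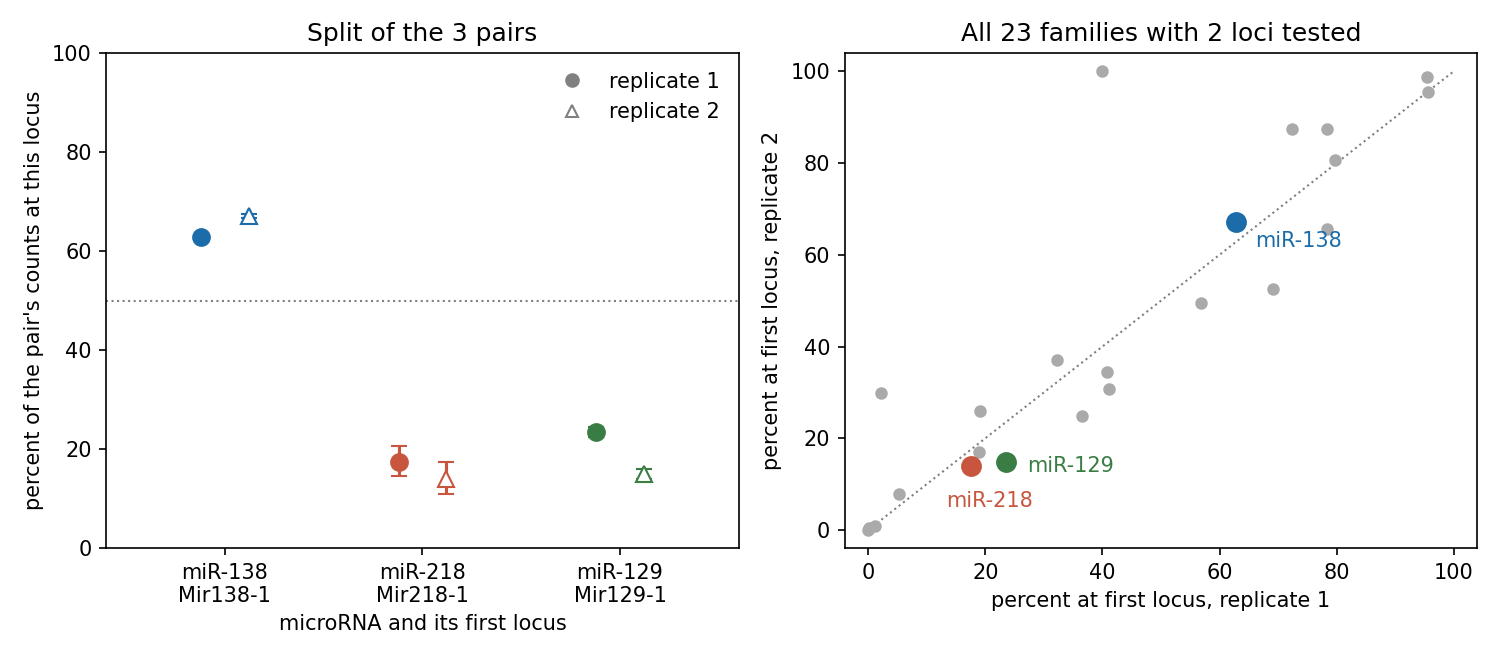
Left, percent of each pair's counts at the first locus (vertical axis, linear) in replicate 1 (circles) and replicate 2 (triangles), with exact 95% intervals; right, the same percent in replicate 1 (horizontal) and replicate 2 (vertical) for 23 families with 2 loci, with a line of equality. Mir138-1 lies above 50% and Mir218-1 and Mir129-1 below it in both libraries.

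All 6 loci were called different between the libraries by an exact binomial test on counts scaled with TMM, adjusted over 516 genes. So were 57.8% of all genes tested. Calls were more frequent at higher counts. Of 309 genes with 100 or more counts, as all 6 loci had, 114 were called higher and 132 lower. Mir138-1 and Mir138-2 were higher in replicate 2, a direction in which 26.6% of genes were called. The other 4 were lower, as were 31.2% of genes. Mir138-1 had a log2 ratio, replicate 2 over replicate 1, of 0.50 (exact 95% interval 0.47 to 0.52) and Mir138-2 of 0.22 (0.19 to 0.26; adjusted p = 1.47e-37, exact binomial test). The largest difference was that of Mir129-1 at -1.27 (-1.40 to -1.13; adjusted p = 6e-85, exact binomial test), 2.41-fold more in replicate 1, while Mir129-2 differed by -0.46 (-0.52 to -0.40). Mir218-1 was lower in replicate 2 at -0.60 (-1.06 to -0.15; adjusted p = 0.013, exact binomial test). Mir218-2 was barely called, at -0.22 (-0.41 to -0.03; adjusted p = 0.0416, exact binomial test), and with TMM factors taken only from genes with 10 or more counts it was not (adjusted p = 0.0646, exact binomial test).

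Set against the spread between these libraries, most of these differences were of ordinary size. The absolute log2 ratio had a median of 0.47 over 309 genes that had at least 100 counts. Mir138-1, at 0.50, and Mir129-2, at -0.46, lay close to it, and Mir138-2 and Mir218-2 below it. Only Mir129-1 lay far out among the 6, and 10.7% of the 309 genes had a larger absolute log2 ratio. The median log2 ratio of the 6 loci was -0.34, against -0.06 over all genes tested. Both loci of a pair had the same sign in all 3 pairs, and in 13 of the 21 families with counts throughout.

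**Figure D4:**
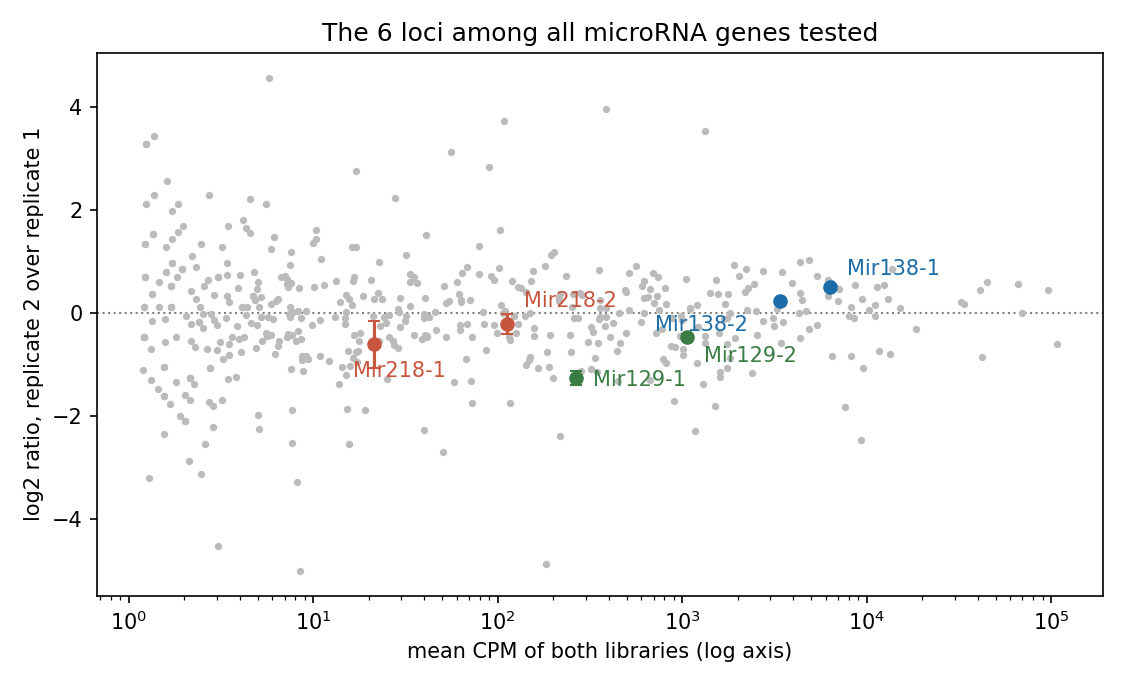
log2 ratio of replicate 2 over replicate 1 (vertical axis) against mean CPM (horizontal axis, log scale) for microRNA genes with 10 or more counts and counts in both libraries (grey), with the 6 loci in colour and exact 95% intervals as bars. The miR-138 loci lie above 0 and the miR-218 and miR-129 loci below it, with Mir129-1 lowest at -1.27.

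Other microRNAs of neurons gave no single direction between the libraries. Of 25 listed, 24 had enough counts to test, and 7 were higher and 13 lower in replicate 2, beside 26.6% and 31.2% of all genes tested, with a median log2 ratio of -0.19. Mir132, which neuronal activity induces, had 54937 CPM in replicate 1 but 30022 CPM in replicate 2, and Mir433 of the imprinted Dlk1-Dio3 domain had 14780 and 15658 CPM. Mir124a-2, a locus of the best-known neuronal microRNA, had 0 counts in both, and the other loci of miR-124 had few, Mir124a-1 with 10 and 15 and Mir124a-3 with 20 and 4. Reads that fit several loci are outside the counts, so these values give no level of miR-124. Summed over the list, the libraries had 143551 and 97520 CPM, of which Mir132 alone gave 54937 and 30022 CPM. The list was chosen with earlier results of these data known, so the size of the sums tests nothing.

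MicroRNAs of other cells and tissues also differed between the libraries, and their part in the differences at the 6 loci was not tested. Of all genes tested, 57.8% were called, 26.6% higher and 31.2% lower, which is the background to the counts of markers. In bulk tissue, fewer cells of a type and less RNA per cell cannot be told apart. Red-cell microRNAs summed to 83.5 and 794 CPM in replicates 1 and 2 (2 of 3 higher), those of sensory organs to 33.9 and 260 CPM (3 of 3 higher) and those of striated muscle to 80.5 and 29.9 CPM (4 of 4 tested lower). Oligodendrocyte microRNAs summed to 5098 and 3543 CPM (2 of 3 lower), mural cell ones to 5178 and 7691 CPM (1 higher and 1 lower) and endothelial ones to 11394 and 10799 CPM (1 of 1 tested lower). Sums were 2228 and 2065 CPM for microglia and leukocytes (1 of 5 higher, 2 lower) and 458 and 391 CPM for choroid plexus (1 of 2 lower). The Hox-embedded microRNAs of spinal cord and trunk summed to 37.0 and 33.4 CPM, with 0 of 3 tested called. Of the defining genes Mir126b, Mir196a-1, Mir1a-1, Mir133a-2 and Mir133b had 0 counts in both libraries. Reads that fit several loci are outside the counts, so 0 counts at a locus does not show that its microRNA was absent. The sums of the lists share this limit.

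The genes most like each locus in level were found by the distance of log2(CPM + 1) over the 2 libraries, among 493 other microRNA genes. With so few libraries this describes level more than pattern. Mir221 (5200 and 7687 CPM, distance 0.07) and Mir143 lay nearest to Mir138-1, and Mir34a (3201 and 3323 CPM, distance 0.12) and Mir485 nearest to Mir138-2. Mir370 (1302 and 901 CPM, distance 0.08) and Mir29c lay nearest to Mir129-2, and Mir101b (388 and 175 CPM, distance 0.17) and Mir125b-2 to Mir129-1. Nearest to Mir218-2 were Mir210 (125 and 102 CPM, distance 0.04) and Mir495. Mir206, a microRNA of striated muscle, at 26.9 and 18.2 CPM (distance 0.13), and Mir1264 lay nearest to Mir218-1.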

How the data were processed

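The authors deposited 1 table of whole-number read counts per library, not normalized, with 4 leading entries that name no gene. Per the text files deposited beside the tables, reads were mapped to mm10 with the GENCODE M21 annotation. The sources used here name no aligner, counter or adapter trimming. The 3 count columns have no header and were read as unstranded, own strand and opposite strand. Own-strand counts were used, and the leading entries stayed out of totals. The labels number the animals separately but give both the same donor identifier. The tests use counts alone, so p-values measure counting error between these 2 libraries, and each SD is that of the 2 libraries.

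Symbols, positions and host genes came from GENCODE M21 and mature sequences from RefSeq (GRCm38.p6). Windows were matched on both strands to the hairpins of the 2202 annotated microRNA genes, leaving out a gene at the same position. No genome was searched. Library sizes were scaled by TMM (edgeR 4.0.16, R 4.3.3). Genes with 10 or more counts together were tested across the whole table by two-sided exact binomial tests, and families whose symbols end in -1 and -2 by Fisher's exact test, both with Benjamini-Hochberg adjustment at 0.05 (SciPy 1.17.1). Intervals are exact 95% (Clopper-Pearson for shares). No quasi-likelihood fit was made, since 1 group leaves no contrast.

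On simulated libraries at these depths, 98.5% of 2-fold changes at 100 or more counts, 16.7% of those under 100 counts and 0 of 303 unchanged genes were called in the comparison of the libraries (500 genes). Of 1.25-fold changes at 100 or more counts, 76.3% were called. In 200 simulated pairs, 97.0% of 2-fold and 4.00% of unchanged odds were called, and smaller changes of the odds were not simulated. These pairs had set totals, equal in both libraries, and shares that did not reach as low as those of Mir218-1. The 97.0% thus does not describe the miR-218 pair. The simulated counts varied by counting error alone, so these shares do not cover other variation between libraries. The members and lists were chosen with earlier results of these data known. Named were the 6 loci, the 2 nearest genes of each and the most abundant or absent genes of the lists. Alternatives were other scalings (DESeq2 1.42.0 size factors, totals), minimum counts, pseudocounts, window sizes, the unstranded column and each library alone.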

Additional observations from a re-analysis of the deposited data

Results flagged for a closer look

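Some reads lie outside the counts used, in numbers above what a count of 0 allows (3 counts). The share of reads that mapped to several places was 42.8% for replicate 1 and 39.9% for replicate 2. Reads of exactly miR-138-5p, miR-218-5p or miR-129-5p fit both loci of a pair and belong there, and their number was not tested. On the strand opposite Mir129-2, replicate 2 had 5 counts and replicate 1 had 0, and the other 5 loci had 0 in both. Mir129b, which lies on that strand, had the same counts on its own strand, and these are within the library totals.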

How the results depend on the processing

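Of 138 values recomputed under alternatives, 116 counted as unchanged. Ratios and odds ratios had to keep their direction and side of the threshold, and levels and shares to stay within the SD of the libraries. Numbers of genes or pairs had to stay within a fixed fold of the main number, and window shares within their exact 95% interval. Overlapping windows of a hairpin are not independent, so that interval served only as a limit. The 138 values leave out TMM with replicate 2 as the reference, which gives the same library sizes. They also leave out dropping a library, which gives only the other library's value. Some that remain could hardly change, so the 116 are no measure of robustness. At every locus but Mir129-2 the unstranded counts were the own-strand counts. A minimum count alters only the adjusted p of a ratio or odds ratio, and a pseudocount barely alters counts of this size. The strand decided Mir129-2. In the unstranded column its level was 3.42 CPM, its log2 ratio 0.78 (adjusted p = 0.323, exact binomial test) and the share of Mir129-1 98.4%, with a log2 odds ratio of the miR-129 split of -2.06, because reads shared with Mir129b are ambiguous there. Mir218-2 lost its call with no minimum count (log2 ratio -0.22, adjusted p = 0.0624) and, in an alternative chosen after seeing the data, with TMM factors from genes with 10 or more counts (-0.20, adjusted p = 0.0646), over a range of adjusted p from 0.0025 to 0.0646 in exact binomial tests. Scaled to 1000000 reads of any kind, levels were 2230 for Mir138-1, 1192 for Mir138-2, 376 for Mir129-2, 95.2 for Mir129-1, 39.7 for Mir218-2 and 7.53 for Mir218-1, because the total is larger. Divided by hairpin length the share of Mir138-1 was 57.1%. Counting only genes with a log2 ratio of at least 1 in size, 38 genes were higher and 61 lower, against 137 and 161. Windows of 25 bases were found at no other locus in 100% of cases for Mir138-1 and Mir138-2, and windows of 18 bases in 76.8% for Mir129-1 and 82.2% for Mir129-2. No paired analysis was possible because the labels give 1 group. Depth limits the miR-218 pair most, at 67 to 519 counts a locus.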
